A study of Mus musculus with 24 samples.

Results

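The RNA-binding proteins reported to work with the cytidine deaminase APOBEC1 were followed in macrophages grown from mouse bone marrow. The genes were A1cf, Rbm47, Syncrip, Hnrnpab, Khsrp and Celf2, chosen by name, and all 6 were among the 23337 gene symbols of the total RNA count tables. A1cf was near 0 in every library, the other 5 were detected in all 24 libraries, and no difference of these 5 between Apobec1-deficient and wild-type cells passed the test. Several of them differed between the batches in which the cultures were grouped, as many other genes did.

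APOBEC1 converts C to U in RNA and is best known from the small intestine, where it edits the mRNA of apolipoprotein B. It does so with an RNA-binding partner that recognises a short mooring sequence next to the edited base. A1CF, the APOBEC1 complementation factor, was the first such partner described, and RBM47, a related protein with RNA recognition motifs, can also support editing. SYNCRIP (hnRNP Q) belongs to the same family, while HNRNPAB (also called ABBP1), KHSRP and CELF2 (CUGBP2) were found with APOBEC1 or its target RNA. KHSRP is also known for the decay of AU-rich mRNAs and CELF2 for splicing and as an inhibitor of apolipoprotein B editing.

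The cultures were Apobec1 -/- (KO) or wildtype (WT), both on the C57BL/6J background, from mice aged 6 to 12 weeks that were littermates or matched for age. Marrow cells were kept for 7 days in medium with 20 ng/mL of M-CSF, the cytokine under which marrow precursors become macrophages, and some of the medium was replaced every 3 days with medium carrying 40 ng/mL of M-CSF. The labels name no other treatment. There were 6 KO and 6 WT cultures, each with a total RNA library and a library of ribosome-protected fragments (footprints, the mRNA pieces covered by translating ribosomes). The labels placed KO5, KO6, WT5 and WT6 in batch 3, KO2, KO3, KO4 and WT4 in batch 2, and KO1, WT1, WT2 and WT3 in batch 1, without saying what a batch was. Nothing in the labels ties a culture to an animal of its own, so p-values reflect how these 12 cultures varied, and that variation may be technical.

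Between 5077478 and 12059361 counts fell in genes in a total RNA library. Footprint libraries held 29561 (WT6) and 90773 (KO6) to 3714912 (WT4), so that the lowest footprint values below rest on few counts. Levels are given in CPM, the count divided by the TMM-scaled library total, and the footprint to RNA ratio is footprint CPM over total RNA CPM of the same culture. Exon lengths were not used here, so levels and ratios are compared for a gene between cultures and not between genes. The targeted gene, Apobec1, had 988 ± 273 CPM of total RNA in KO cells, against 386 ± 65.4 CPM in WT cells (SD, n = 6 each), a log2 change of 1.34 (edgeR adjusted p = 1.39e-04). Its footprints fell to 8.56 ± 8.35 CPM in KO cells, against 84.0 ± 19.9 CPM in WT cells, a log2 change of -3.51 (edgeR adjusted p = 5.13e-08). All 8 macrophage markers had at least 30 counts in every total RNA library, and their summed level was 15261 to 31879 CPM in KO libraries and 16762 to 48905 CPM in WT libraries. The batches differed in marker levels, although batch 3 overlapped another batch in each of the sums below. The summed level of 10 neutrophil markers was 421 to 563 CPM in batch 3, 67.6 to 469 CPM in batch 2 and 11.4 to 16.7 CPM in batch 1. Not every marker followed this sum. Mmp9 had 9 to 23 counts in batch 3, 23 to 143 in batch 2 and 54 to 119 in batch 1. Mmp8 reached 1373 counts in batch 2 and at most 191 in batch 3. The summed level of the macrophage markers was 15261 to 25129 CPM in batch 3, 27414 to 48905 CPM in batch 2 and 21442 to 28685 CPM in batch 1. Lyz2 weighed most in this sum, with a mean of 17459 CPM, and the markers differed. Emr1 had 7586 to 9644 counts in batch 3, 20964 to 39441 in batch 2 and 45438 to 60091 in batch 1. Cd68 overlapped, with 1930 to 2342, 1830 to 3044 and 1764 to 3260 counts in the same order. The Y-linked genes Ddx3y, Eif2s3y, Kdm5d and Uty had 0 or 1 count in each library of batch 3, whereas Ddx3y had 374 to 639 counts in batch 2 and 1038 to 1694 counts in batch 1. Xist, the other sex-linked gene read, had 172 to 386 counts in batch 3, 2 to 6 in batch 2 and 2 to 11 in batch 1. By these counts batch 3 read as female and batches 2 and 1 as male. A sex difference therefore cannot be told apart from other differences of batch 3, and its part was not tested.

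A1cf was not expressed above background. It had 9 total RNA counts over the 6 KO libraries, between 0 and 5 in each, and 5 over the 6 WT libraries, between 0 and 2 in each. The highest level, in KO3, was 0.869 CPM. In the libraries with no count the limit that a count of 0 allows (3 counts) was 0.415 CPM in KO2 and 0.397 CPM in KO6, against 0.496 CPM in WT4 and 0.446 CPM in WT6. Footprints of A1cf were at 0 counts in all KO libraries and at 1 count in WT1 and 1 in WT3. The shallow footprint libraries bound this weakly, since 0 counts allow up to 31.8 CPM in KO6 and 80.4 CPM in WT6, whereas they allow 0.823 CPM in KO4 and 0.870 CPM in WT4. A1cf failed the filter on low counts in total RNA and in footprints, and no difference between groups was tested for it. The 6 hepatocyte and enterocyte markers, including Apob, the gene of the classic editing target, summed to at most 1 count in any KO library and 12 counts in any WT library, so markers of the tissues best known for A1cf were near 0 as well. Intervals and limits of this kind cover counting error only.

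The gene starts give a sequence context for this split. A1cf lies at chr19:31868756-31952365, Syncrip at chr9:88449364-88482591 and Hnrnpab at chr11:51600100-51606881, as RefSeq annotates them on GRCm38.p6, the patch release of mm10. Their promoter windows, from 250 bases before to 50 bases after a transcript start in the RefSeq promoter table, are shown for the gene near 0 and for a pair that was expressed and highest in batch 3. For A1cf and Syncrip that start lies inside the gene span given above, and for Hnrnpab it is the end of the span from which this minus-strand gene is read. The capitals mark every CG, which reads the same on the other strand. The A1cf window is chr19:31868563-31868862 on the plus strand, the Syncrip window is chr9:88482348-88482647 on the minus strand and the Hnrnpab window is chr11:51606832-51607131 on the minus strand, each printed 5′ to 3′.
A1cf: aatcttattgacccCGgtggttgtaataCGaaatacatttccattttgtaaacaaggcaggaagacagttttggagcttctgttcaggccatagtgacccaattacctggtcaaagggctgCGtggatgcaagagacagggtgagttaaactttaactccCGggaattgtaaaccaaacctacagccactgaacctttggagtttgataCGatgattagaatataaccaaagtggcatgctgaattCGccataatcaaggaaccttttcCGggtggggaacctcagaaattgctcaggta
Syncrip: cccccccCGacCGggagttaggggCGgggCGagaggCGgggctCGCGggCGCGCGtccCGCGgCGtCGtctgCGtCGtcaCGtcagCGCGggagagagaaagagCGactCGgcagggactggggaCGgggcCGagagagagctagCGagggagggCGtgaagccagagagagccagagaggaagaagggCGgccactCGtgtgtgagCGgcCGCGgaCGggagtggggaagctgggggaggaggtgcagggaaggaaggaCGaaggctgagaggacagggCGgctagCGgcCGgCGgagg
Hnrnpab: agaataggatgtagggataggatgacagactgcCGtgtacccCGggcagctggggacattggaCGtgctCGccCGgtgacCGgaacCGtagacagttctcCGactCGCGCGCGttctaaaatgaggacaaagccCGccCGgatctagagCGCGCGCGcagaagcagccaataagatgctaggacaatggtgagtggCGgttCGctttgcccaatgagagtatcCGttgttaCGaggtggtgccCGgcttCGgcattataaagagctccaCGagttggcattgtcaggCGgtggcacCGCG
The A1cf window held 7 CG, the median of the 32851 RefSeq promoter windows of this length. The Syncrip window held 36, a count that 6.23% of windows reach, and the Hnrnpab window held 28, which 14.2% reach. Khsrp (chr17:57021049-57031507) has a single window with 32 CG, reached by 9.52% of windows. Rbm47 (chr5:66016549-66151954) has 3 windows with 3, 14 and 10 CG, and Celf2 (chr2:6539694-7396341) has 5 with 8, 48, 6, 6 and 4, counted in the order of the table. Of 5529 genes whose best window held at most 7 CG, 15.1% averaged at least 1 CPM of total RNA in these cultures, against 74.1% of 9519 genes with at least 10 CG. The 7 CG of A1cf and its near absence are thus shared with most genes of such windows, and the match is a description, not a cause.

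KO and WT cultures were compared to ask whether the loss of APOBEC1 goes with a change of its partners. None of the 5 detected genes was called in total RNA, footprints or the ratio. The share of all tested genes called was 0.0183% in total RNA (10942 genes), 0.0832% in footprints (7208 genes) and 0.0139% in the ratio (7203 genes), so a count of 0 among 5 is also what most genes showed. At an unadjusted p under 0.05 there were 0 of the 5 in each of these quantities, beside 512, 614 and 181 of all tested genes in the same order. DESeq2 and limma called none either. The median log2 change of the 5 was 0.06 in total RNA, 0.02 in footprints and -0.12 in the ratio, beside medians of -0.0016, 0.015 and -0.00066 over all tested genes. In these bulk cultures, fewer cells of a type and less RNA per cell cannot be told apart.

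**Figure D1:**
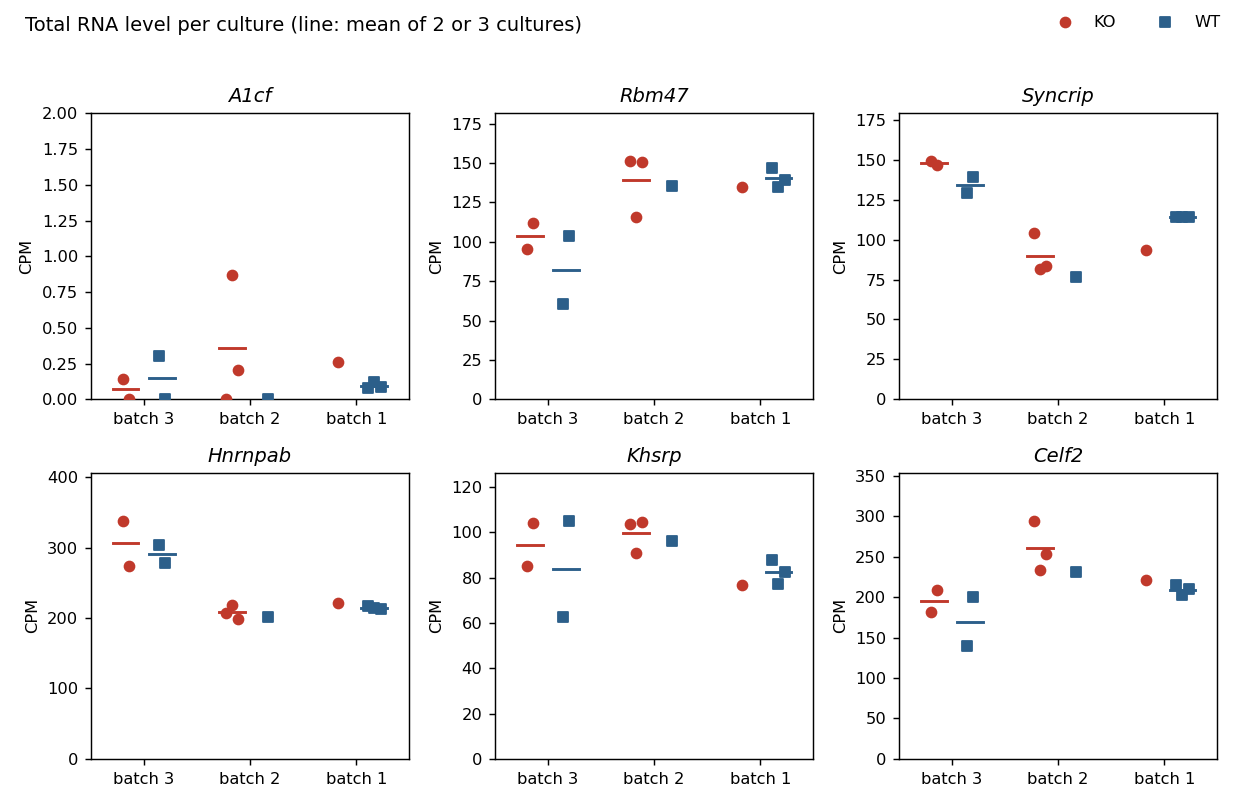
Total RNA level in CPM (linear axis from 0) of the 6 genes, a point per culture, by batch, with KO (red circles) left of WT (blue squares) and a line at the mean where a group has more than 1 culture. A1cf stays under 0.9 CPM, Syncrip and Hnrnpab are highest in batch 3, and WT5 is the lowest culture for Rbm47, Khsrp and Celf2.

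Rbm47, the A1CF relative that can serve as the editing partner, was clearly expressed. Its total RNA was 95.7, 125 and 151 CPM (lowest, median and highest) in KO cultures and 60.5, 135 and 147 CPM in WT cultures. Its footprints were 113, 119.6 and 155 CPM in KO cultures and 53.6, 126 and 139 CPM in WT cultures. The genotypes overlapped in both quantities, and the WT minimum of the footprints rests on 2 counts in WT6. The total RNA change of KO over WT was 0.13 on the log2 scale (SE 0.14, 95% interval -0.16 to 0.42, edgeR adjusted p = 0.881). The footprint change was 0.02 (SE 0.16, edgeR adjusted p = 0.999) and the ratio change -0.12 (SE 0.20, edgeR adjusted p = 1.00). Without WT5, the total RNA change was -0.0067 and the ratio change 0.02, so the direction rested on that culture.

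Syncrip, a second A1CF relative, was also found in every library. Its total RNA was 81.7, 98.8 and 149 CPM in KO cultures and 76.9, 114 and 139 CPM in WT cultures. Its footprints were 106, 176 and 241 CPM in KO cultures and 115, 149 and 165 CPM in WT cultures. The ranges overlapped, with the 2 highest footprint values in KO5 and KO6. The log2 change of KO over WT was 0.04 in total RNA (SE 0.10, edgeR adjusted p = 0.950), 0.10 in footprints (SE 0.15, edgeR adjusted p = 0.943) and 0.04 in the ratio (SE 0.16, edgeR adjusted p = 1.00). The total RNA difference of KO minus WT was 0.14 in batch 3, 0.21 in batch 2 and -0.28 in batch 1 on the log2 scale.

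Hnrnpab, an hnRNP described as an APOBEC1-binding protein, had total RNA of 199, 219 and 338 CPM in KO cultures and 201, 216 and 303 CPM in WT cultures. Its footprints were 203, 248 and 428 CPM in KO cultures and 197, 236 and 329.9 CPM in WT cultures. The genotypes overlapped over most of their range. The log2 change of KO over WT was 0.06 in total RNA (SE 0.07, 95% interval -0.10 to 0.22, edgeR adjusted p = 0.899), the narrowest interval of the 5 genes. It was 0.02 in footprints (SE 0.14, edgeR adjusted p = 0.999) and -0.04 in the ratio (SE 0.14, edgeR adjusted p = 1.00). The annotation overlaps Hnrnpab with Phykpl, counted as Agxt2l2 with 16 to 37 total RNA counts, and whether counting used strand is not given in the sources used here.

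Khsrp, the KH-domain protein of AU-rich mRNA decay, had total RNA of 76.9, 97.4 and 105 CPM in KO cultures and 62.8, 85.1 and 105 CPM in WT cultures. Its footprints were 123, 148 and 164 CPM in KO cultures and 129.9, 175 and 197 CPM in WT cultures. The ranges overlapped, although the 4 highest footprint values were all in WT cultures, WT1, WT2, WT3 and WT5. Of these, WT1, WT2 and WT3 were of batch 1, which held 3 WT cultures and 1 KO culture. The log2 change of KO over WT was 0.05 in total RNA (SE 0.12, edgeR adjusted p = 0.945), -0.09 in footprints (SE 0.16, edgeR adjusted p = 0.954) and -0.14 in the ratio (SE 0.19, edgeR adjusted p = 1.00). Without WT5 the ratio change was 0.05 and without KO1 the footprint change was 0.11. The footprint difference of KO minus WT was -0.23 in batch 3, 0.30 in batch 2 and -0.43 in batch 1.

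Celf2, the inhibitor of apolipoprotein B editing, had total RNA of 182, 227 and 295 CPM in KO cultures and 139, 206 and 231 CPM in WT cultures. Its footprints were 105, 159.8 and 187 CPM in KO cultures and 107, 157 and 185 CPM in WT cultures. Its ratio was 0.575, 0.673 and 0.733 in KO cultures and 0.534, 0.766 and 1.12 in WT cultures. The ranges overlapped in all 3 quantities, and the highest and the lowest ratio were both in WT cultures of batch 3, WT5 and WT6. The ratio change of KO over WT was -0.30 (SE 0.16, 95% interval -0.63 to 0.02, unadjusted p = 0.0686, edgeR adjusted p = 1.00), the largest in size of the 5 genes. Within batches the difference of KO minus WT was -0.27 in batch 3, -0.21 in batch 2 and -0.29 in batch 1. The total RNA change was 0.16 (SE 0.10, edgeR adjusted p = 0.859) and the footprint change -0.14 (SE 0.15, edgeR adjusted p = 0.893). The annotation overlaps Celf2 with 5031426D15Rik, which had 10 to 43 total RNA counts.

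**Figure D2:**
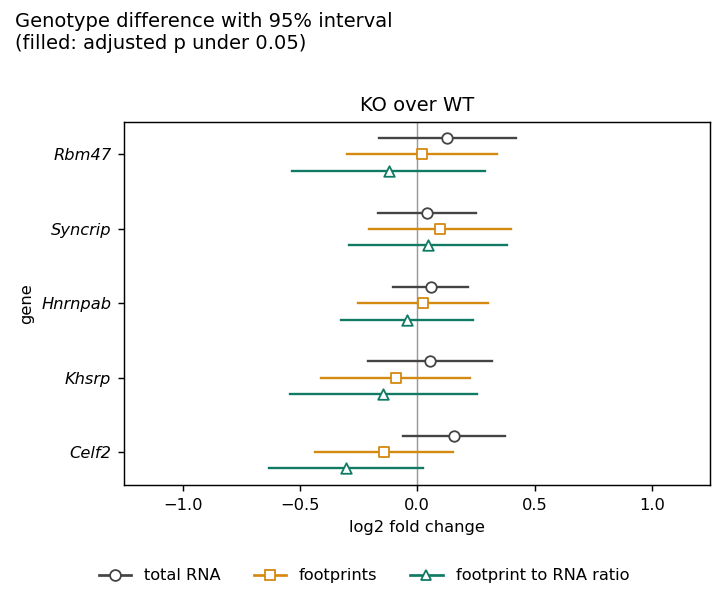
Log2 fold change of KO over WT with its 95% interval for the 5 tested genes, in total RNA (circles), footprints (squares) and the footprint to RNA ratio (triangles), from edgeR. All 15 symbols are open (adjusted p of at least 0.05) and all intervals include 0, with the Celf2 ratio at -0.30 the farthest from it.

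Whether the genotype difference changed between batches was tested as an interaction. It was called for none of the 5 genes in total RNA, where 0.987% of all tested genes were called, and for none in footprints, where 2.01% were, and DESeq2 and limma called none. At an unadjusted p under 0.05 there were 0 in total RNA and 1 in footprints. Over all tested genes there were 1399 of 10942 and 844 of 7208. Khsrp had the smallest p among the 5 in footprints (unadjusted p = 0.0387, edgeR adjusted p = 0.385), and Syncrip had the smallest in total RNA (unadjusted p = 0.0617, edgeR adjusted p = 0.418). The authors' deposited table over all genes gave log2 fold changes of 0.09 for Rbm47, -0.35 for Syncrip, -0.08 for Hnrnpab, 0.33 for Khsrp and 0.21 for Celf2, each with an adjusted p of 1, and did not state which genotype was on top. In the authors' deposited table Apobec1 had 4.88, opposite in sign to the ratio change of KO over WT found here (-4.89). By that gene, the authors' values read as the footprint to RNA ratio of WT over KO. Read so, a sign opposite to the ratio change of KO over WT here is the same direction, as held for Rbm47, Syncrip, Khsrp and Celf2. Hnrnpab was negative in both, at -0.08 there and -0.04 here, so its direction differed. In the authors' deposited table of the top 25 percent of genes, the adjusted p of the same 5 genes ran from 0.717 to 0.940, and A1cf was not listed.

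**Figure D3:**
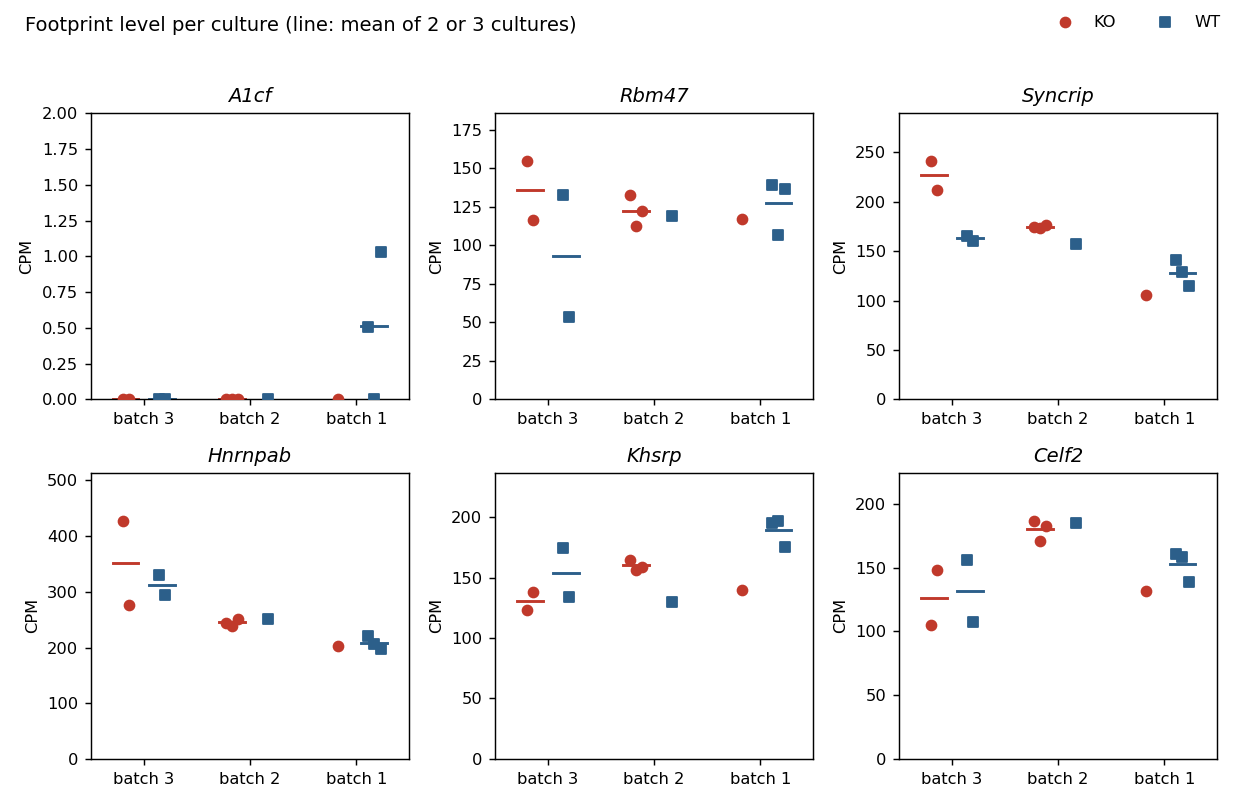
Footprint level in CPM (linear axis from 0) of the 6 genes, a point per culture, by batch, with KO (red circles) left of WT (blue squares) and a line at the mean where a group has more than 1 culture. Hnrnpab and Syncrip are lowest in batch 1, and A1cf is at 0 except for 1 count in each of 2 WT cultures of batch 1.

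Between batches the partners did move. In total RNA, batch 3 over batch 1 had 3 of the 5 genes called (45.3% of all tested genes), batch 3 over batch 2 had 4 of 5 (49.2%), and batch 2 over batch 1 had 1 of 5 (23.5%). With 5 genes, these counts are not read as different from the shares of all genes. The neutrophil, macrophage and sex-linked values given above moved with the batches too, and their part in these results was not tested. The 3 batch comparisons share libraries, so their values are set side by side and not counted as independent.

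Hnrnpab was higher in batch 3. Its total RNA was 338, 274, 303 and 278 CPM in KO5, KO6, WT5 and WT6 of batch 3. It was 207, 218, 199 and 201 CPM in KO2, KO3, KO4 and WT4 of batch 2, and 221, 217, 215 and 213 CPM in KO1, WT1, WT2 and WT3 of batch 1. No culture of batch 3 overlapped the other batches. The log2 change was 0.45 for batch 3 over batch 1 (SE 0.08, edgeR adjusted p = 7.98e-04) and 0.55 for batch 3 over batch 2 (SE 0.08, edgeR adjusted p = 1.84e-04). Its footprints followed, at 428, 276, 329.9 and 295 CPM in batch 3, 239 to 251 CPM in batch 2 and 197 to 221 CPM in batch 1. In footprints, batch 3 over batch 1 had 2 of 5 genes called (20.8% of all tested genes), batch 3 over batch 2 had 1 of 5 (22.5%) and batch 2 over batch 1 had 0 of 5 (15.4%). In batch 2 over batch 1, 2 of 5 had an unadjusted p under 0.05, Syncrip and Celf2, beside 2141 of all 7208 tested genes. DESeq2 and limma called none of the 5 there. Hnrnpab was called in the first (log2 0.73, SE 0.17, edgeR adjusted p = 0.00226) and the second (log2 0.49, SE 0.16, edgeR adjusted p = 0.0253). The call over batch 2 was lost without KO5 (log2 0.29, edgeR adjusted p = 0.348) and without WT5 (log2 0.50, edgeR adjusted p = 0.0615), and with no filter on low counts (log2 0.39, edgeR adjusted p = 0.138), where Celf2 was the 1 gene called.

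Syncrip had a different order of batches in each quantity. Its total RNA was 149, 147, 129 and 139 CPM in KO5, KO6, WT5 and WT6 of batch 3. It was 104, 81.7, 83.7 and 76.9 CPM in KO2, KO3, KO4 and WT4 of batch 2, and 93.5, 114, 114 and 114 CPM in KO1, WT1, WT2 and WT3 of batch 1. Batch 3 lay above the others without overlap, while batches 2 and 1 overlapped through KO2 and KO1. The log2 change was 0.71 for batch 3 over batch 2 (SE 0.11, edgeR adjusted p = 1.75e-04) and 0.36 for batch 3 over batch 1 (SE 0.11, edgeR adjusted p = 0.0160). The call over batch 1 was lost without KO1 (log2 0.22, edgeR adjusted p = 0.121) and without both KO6 and WT6 (log2 0.35, edgeR adjusted p = 0.0558). The log2 change was -0.35 for batch 2 over batch 1 (SE 0.12, edgeR adjusted p = 0.0481), a call lost in 10 of the 12 fits that left out a culture. Its footprints were 161 to 241 CPM in batch 3, 157 to 177 CPM in batch 2 and 106 to 141 CPM in batch 1. The footprint change was called for batch 3 over batch 1 (log2 0.67, SE 0.20, edgeR adjusted p = 0.0134), and it lost its call without KO1 (log2 0.48, edgeR adjusted p = 0.130), without KO5 (log2 0.53, edgeR adjusted p = 0.126) and with no filter on low counts (log2 0.58, edgeR adjusted p = 0.0527).

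The footprint to RNA ratio of Syncrip stood out in batch 2. It was 1.68, 2.12, 2.11 and 2.04 in KO2, KO3, KO4 and WT4 of batch 2, and 1.13, 1.24, 1.14 and 1.01 in KO1, WT1, WT2 and WT3 of batch 1. The 2 batches did not overlap, and the 4 cultures of batch 3 lay between 1.15 and 1.62. For batch 2 over batch 1 the ratio was called for 1 of 5 genes (16.7% of all tested genes), Syncrip, at a log2 change of 0.76 (SE 0.19, edgeR adjusted p = 0.00718, and 0.0691 without WT4, at 0.73). With a block for each culture, whose RNA and footprint libraries are paired, 3 of 5 were called (31.7% of all tested genes). These were Syncrip at 0.78 (edgeR adjusted p = 4.98e-05), Hnrnpab at 0.34 (edgeR adjusted p = 0.0415) and Khsrp at -0.46 (edgeR adjusted p = 0.0182). Without the block, Hnrnpab had 0.33 (edgeR adjusted p = 0.157) and Khsrp -0.43 (edgeR adjusted p = 0.182, and 0.0494 without WT5, at -0.53).

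**Figure D4:**
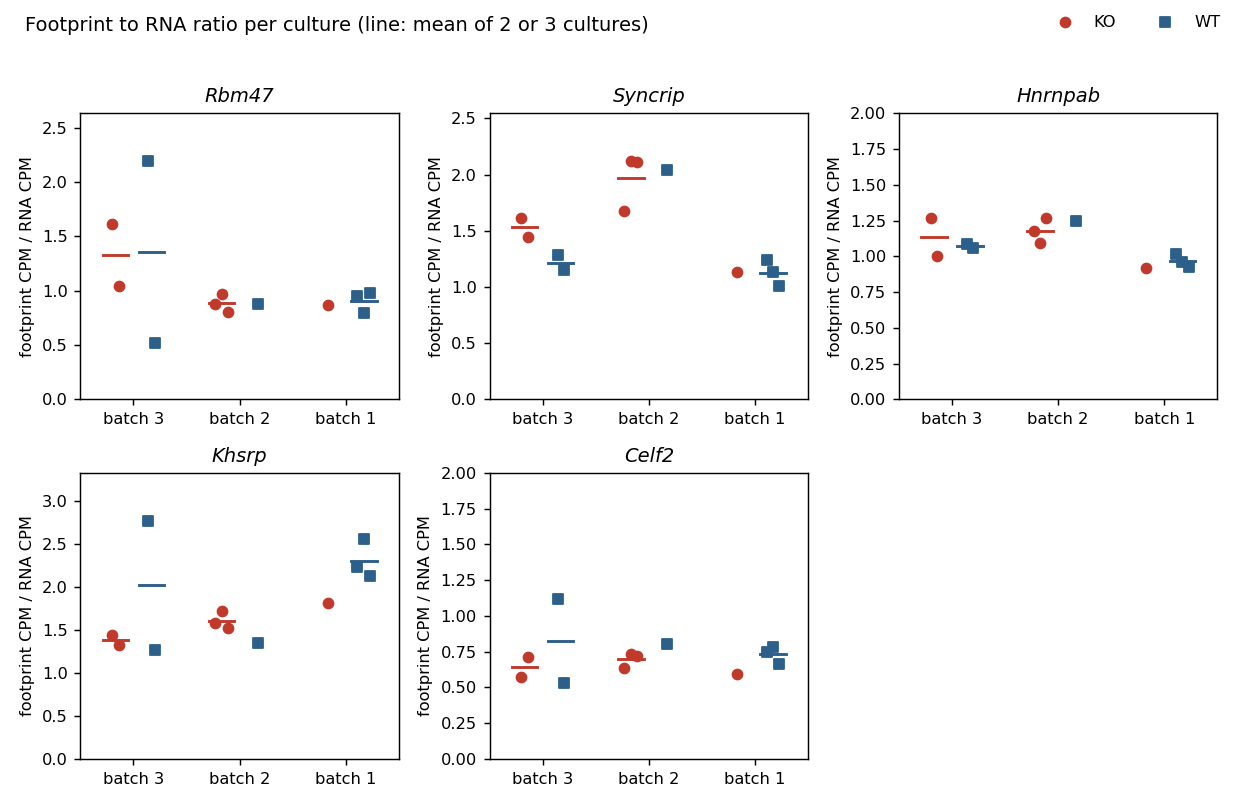
Footprint to RNA ratio (footprint CPM over total RNA CPM, linear axis from 0) of the 5 detected genes, a point per culture, by batch, with KO (red circles) left of WT (blue squares) and a line at the mean where a group has more than 1 culture. The Syncrip ratio of batch 2 (1.68 to 2.12) lies above batch 1 (1.01 to 1.24), and WT5 of batch 3 is the highest culture for Rbm47, Khsrp and Celf2.

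Rbm47 went the other way in total RNA. It was 95.7, 112, 60.5 and 104 CPM in KO5, KO6, WT5 and WT6 of batch 3. It was 151, 116, 151 and 135 CPM in KO2, KO3, KO4 and WT4 of batch 2, and 135, 147, 135 and 139 CPM in KO1, WT1, WT2 and WT3 of batch 1. Batch 3 lay below the others without overlap. The log2 change was -0.62 for batch 3 over batch 1 (SE 0.16, edgeR adjusted p = 0.00567) and -0.55 for batch 3 over batch 2 (SE 0.15, edgeR adjusted p = 0.00989). WT5 was the lowest, and without it the changes were -0.42 (edgeR adjusted p = 0.00888) and -0.41 (edgeR adjusted p = 0.00577). Its footprints did not pass the test, at 0.03 for batch 3 over batch 1 (SE 0.22, edgeR adjusted p = 0.998) and 0.10 for batch 3 over batch 2 (SE 0.20, edgeR adjusted p = 0.775).

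The ratio of Rbm47 was spread widest in batch 3. It was 1.62, 1.04, 2.20 and 0.516 in KO5, KO6, WT5 and WT6 of batch 3, where the footprint counts were 34, 11, 29 and 2. It was 0.809 to 0.972 in batch 2 and 0.790 to 0.981 in batch 1. For batch 3 over batch 2 the ratio was called for 0 of 5 genes (9.97% of all tested genes) and for batch 3 over batch 1 for 0 of 5 (1.14%), with DESeq2 and limma calling none. At an unadjusted p under 0.05 there were 2 (Rbm47 and Syncrip) over batch 2, beside 1748 of all 7203 tested genes. Over batch 1 there was 1 (Rbm47), beside 896 of 7203. Rbm47 had 0.61 over batch 2 (SE 0.26, edgeR adjusted p = 0.136) and 0.60 over batch 1 (SE 0.27, edgeR adjusted p = 0.339). With the culture block, 2 of 5 were called for batch 3 over batch 2 (17.5% of all tested genes), Rbm47 at 0.77 (edgeR adjusted p = 0.00918) and Syncrip at -0.50 (edgeR adjusted p = 0.0401). Without the block, Rbm47 passed there without WT6 (0.81, edgeR adjusted p = 0.0414) and Syncrip without KO1 (-0.57, edgeR adjusted p = 0.0344).

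Celf2 had less total RNA in batch 3 than in batch 2. It was 182, 209, 139 and 201 CPM in KO5, KO6, WT5 and WT6 of batch 3, and 295, 234, 253 and 231 CPM in KO2, KO3, KO4 and WT4 of batch 2. The 2 batches did not overlap, and batch 1 lay between 203 and 221 CPM. The log2 change was -0.43 for batch 3 over batch 2 (SE 0.12, edgeR adjusted p = 0.00715) and -0.26 for batch 3 over batch 1 (SE 0.12, edgeR adjusted p = 0.0811). The change over batch 1 passed without WT6 (-0.37, edgeR adjusted p = 0.0226) and without both KO6 and WT6 (-0.46, edgeR adjusted p = 0.00770). Its footprints were 105 to 156 CPM in batch 3 and 171 to 187 CPM in batch 2, a change of -0.49 (SE 0.19, edgeR adjusted p = 0.0601) that missed the threshold and passed with no filter on low counts (-0.60, edgeR adjusted p = 0.0409). With all cultures, Khsrp was called in no batch comparison of total RNA, footprints or the ratio without the block. Its total RNA was 62.8 to 105 CPM in batch 3, 90.8 to 105 CPM in batch 2 and 76.9 to 87.6 CPM in batch 1, with WT5 the lowest culture, and without WT5 the changes over batch 1 passed, at 0.30 for batch 3 (edgeR adjusted p = 0.0304) and 0.32 for batch 2 (edgeR adjusted p = 0.0306). Without both KO6 and WT6, Khsrp passed in batch 3 over batch 2 (-0.41, edgeR adjusted p = 0.0183).

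**Figure D5:**
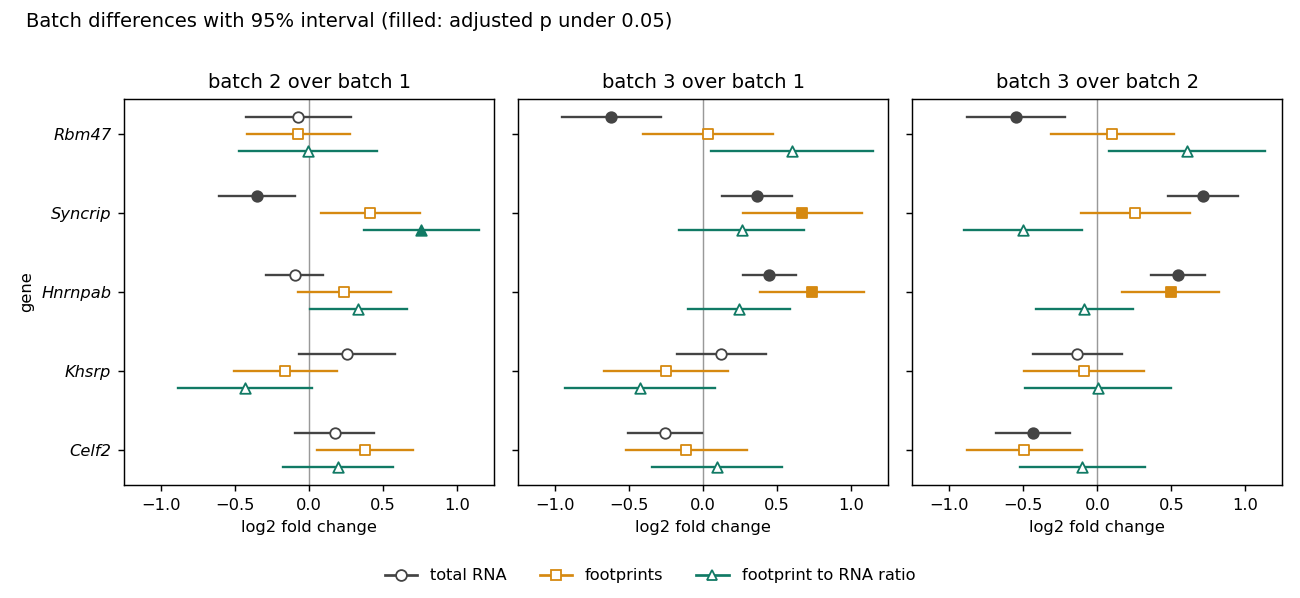
Log2 fold change with its 95% interval between batches for the 5 tested genes, in total RNA (circles), footprints (squares) and the footprint to RNA ratio (triangles), from edgeR with genotype in the model. Filled symbols passed an adjusted p of 0.05, among them Rbm47, Syncrip and Hnrnpab in total RNA of batch 3 over batch 1 and the Syncrip ratio of batch 2 over batch 1.

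WT5 set several extremes among these genes. In batch 3 it had the lowest total RNA of Rbm47, Khsrp and Celf2 and the highest ratio of each, at 2.20, 2.77 and 1.12. Its total RNA of Syncrip and Hnrnpab, at 129 and 303 CPM for the 2 genes, was the lowest of batch 3 for Syncrip and the second highest for Hnrnpab. Its total RNA library also had the highest share of reads without a single alignment, 51.2%, with the other 11 between 27.8% and 44.1%. The part of that share in the low values was not tested.

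Over the 12 cultures, the SD of log2 total RNA CPM was 0.38 for Rbm47, 0.33 for Syncrip, 0.26 for Hnrnpab, 0.23 for Khsrp and 0.26 for Celf2. The median over 8518 genes with a mean of at least 10 CPM was 0.27. In footprints the SD was 0.38, 0.34, 0.32, 0.23 and 0.28 for the same genes, below the median of 0.64 over 7832 genes. Khsrp varied less in footprints than all but 2.77% of these genes, and Rbm47 less than all but 18.2%. The limit of 10 CPM lies below the level of 3 footprint counts in KO6 (31.8 CPM) and WT6 (80.4 CPM). Counting error thus widens the SD of low genes in that set. The partners were not compared with genes of a like level, so their rank is not read as steadiness.

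The genes most like each partner in total RNA were found by Pearson correlation of log2 CPM over the 12 libraries after each batch was centred on its mean. Golgb1 was most like Rbm47 (r = 0.984), Zmpste24 most like Syncrip (0.975), Alyref most like Hnrnpab (0.938), Ncoa1 most like Khsrp (0.992) and Herpud2 most like Celf2 (0.984), out of 8518 genes. Without WT5 the same pairs had 0.929, 0.983, 0.947, 0.992 and 0.963. Rbm47, Khsrp and Celf2 were also like each other, at 0.955 for Rbm47 with Khsrp, 0.905 for Rbm47 with Celf2 and 0.879 for Khsrp with Celf2. Before centring, the same pairs had 0.536, 0.869 and 0.723. WT5 was the lowest culture for each of these genes, and their correlations without it were not computed, so they may rest on that culture. These correlations share libraries and depth, are the highest of many, and are given as a description. In footprints the same first pairs had 0.832, 0.477, 0.355, 0.0464 and 0.559.

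A list of 19 related genes was read for comparison, made of homologues of the 6 genes and 3 other proteins reported to bind APOBEC1 (Dnajb11, Bag4 and Hnrnpc). Of these, 12 were tested in total RNA, 12 in footprints and 11 in the ratio, and edgeR called none between KO and WT in any of them. At an unadjusted p under 0.05 there were 0 in total RNA, 2 in footprints (Hnrnpr and Hnrnpd) and 0 in the ratio. Over all tested genes there were 512 of 10942, 614 of 7208 and 181 of 7203. Their median log2 change of KO over WT was 0.02 in total RNA, 0.02 in footprints and 0.02 in the ratio. Among the A1cf, Rbm47 and Syncrip homologues, Hnrnpr averaged 59.1 CPM of total RNA in KO cultures and 62.8 CPM in WT cultures, while Rbm46 was at 0 counts in every library and Dnd1 had at most 7 counts. Of the Celf2 homologues, Celf1 averaged 78.7 CPM in KO cultures and 73.1 CPM in WT cultures, and Celf3, Celf5 and Celf6 had at most 4 counts in any total RNA library. Hnrnpa1 had only 2 to 5 total RNA counts but up to 164 footprint counts. Reads with several alignments were counted apart from genes, so a gene with near-identical copies, as Hnrnpa1 has, is uncertain here.

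Between batches some of the related genes changed too. In total RNA, 2 of 12 rose and 2 fell in batch 3 over batch 1 (45.3% of all tested genes were called), 3 rose and none fell in batch 3 over batch 2 (49.2%), and none rose and 3 fell in batch 2 over batch 1 (23.5%). These counts are not read as different from the shares of all genes. Hnrpdl, a homologue of Hnrnpab, rose by 0.54 on the log2 scale in batch 3 over batch 1 (SE 0.20, edgeR adjusted p = 0.0439). Hnrnpa2b1, also a homologue of Hnrnpab, rose by 0.35 in batch 3 over batch 2 (SE 0.12, edgeR adjusted p = 0.0247). Fubp1, a homologue of Khsrp, fell by 0.80 in batch 2 over batch 1 (SE 0.16, edgeR adjusted p = 0.00446) and rose by 0.53 in batch 3 over batch 2 (SE 0.15, edgeR adjusted p = 0.0105). The other calls were APOBEC1-binding proteins. In batch 2 and in batch 3 over batch 1, Bag4 had -0.50 and -0.43 (edgeR adjusted p = 0.0121 and 0.00831) and Hnrnpc -0.30 and -0.30 (0.0263 and 0.00868). Dnajb11 had 0.26 in batch 3 over batch 1 and 0.28 over batch 2 (edgeR adjusted p = 0.0337 and 0.0215). In footprints, 3 of 12 related genes were called in batch 3 over batch 1 (20.8% of all tested genes). These were Hnrnpa0 at 0.99 (SE 0.25, edgeR adjusted p = 0.00379), Celf1 at 0.95 (edgeR adjusted p = 0.0447) and Fubp1 at -0.92 (edgeR adjusted p = 0.0488). Batch 2 over batch 1 had only Celf1 called, at 0.69 (edgeR adjusted p = 0.0467, with 15.4% of all tested genes called). Batch 3 over batch 2 had only Hnrnpa1, whose counts are uncertain, at 0.88 (edgeR adjusted p = 0.0188, with 22.5%). edgeR called no related gene in the ratio between any pair of batches, with 2 of 11 at an unadjusted p under 0.05 in each. That limit held 2230 of all 7203 tested genes in batch 2 over batch 1. It held 896 in batch 3 over batch 1 and 1748 in batch 3 over batch 2.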

How the data were processed

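Total RNA and footprint libraries of 12 macrophage cultures were analysed. The authors' deposited counts were whole reads per gene symbol, not normalized; per the file names footprints were counted in coding sequence, and the region counted for total RNA is not given in the sources used here. Footprint tables listed only symbols with a count, and absent symbols were set to 0. Per the submitters' processing notes, which give no role or order, the software was HTSeq, DESeq and DESeq2, TopHat2 2.1.0 and Bowtie 1.1.2, Cufflinks 2.2.1 and Trim Galore, and the build was mm10. Reads without a single alignment, counted apart in the HTSeq summary lines, were 27.8% to 51.2% of total RNA reads and 45.6% to 80.1% of footprint reads, and these lines stayed out of library sizes and tests. The authors' deposited result tables hold, per the file headers, a mean normalized signal (baseMean), a log2 fold change, a test score and p-values.

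The test was the quasi-likelihood F-test of edgeR 4.0.16 (R 4.3.3) with batch and genotype as terms, on libraries scaled by TMM. Genes passed filterByExpr by genotype at its minimum count of 10, and p-values were adjusted over all of them by Benjamini-Hochberg, with calls at 0.05. The ratio was tested as the interaction with molecule over 24 libraries, for genes kept in both. CPM used TMM factors, log2 CPM a prior count of 2, and SEs were derived from the F statistic. Libraries of a culture share a number in the labels, and their deviations from group means correlated at 0.219 to 0.558, so the ratio fit with a culture block is also given. Other settings were RLE scaling, limma 3.58.1 (voom, quality weights), DESeq2 1.42.0, no filter, no batch term, a replicate block, leaving out each culture, and leaving out KO6 and WT6. The fits were tested on simulated data. Gene positions and promoter sequences are from RefSeq, and all 6 genes matched by symbol. The text names the 6 genes, a list of 19 related genes, and for each tested gene the 3 most like it, of which the first is printed. The genes, lists and tests were chosen with earlier results of these data known.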

Additional observations from a re-analysis of the deposited data

Results flagged for a closer look

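Of 75 groups of 4 or 6 values examined, 7 held a culture far from the others of its group. Chance gives about 1 in 20 for independent, normally distributed values. These groups share cultures and values, and the KO and WT groups mix batches, so the 7 are not set against that rate. The footprint to RNA ratio of Rbm47 was highest in KO5 among KO cultures (1.62, next 1.04) and in WT5 among WT cultures (2.20, next 0.981). The ratio of Khsrp in WT5 was 2.77, above the next culture of batch 3 at 1.44, and the total RNA of Celf2 in WT5 was 139 CPM, below the next WT culture at 201 CPM. The total RNA of Syncrip in KO1 was 93.5 CPM, below the 114 CPM of the other cultures of batch 1. The ratio of Syncrip in WT4 was 2.04, above the next WT culture at 1.28, and WT4 is the single WT culture of batch 2. The footprint level of Hnrnpab in KO5 was 428 CPM, above the next KO culture at 276 CPM. Among the related genes, the genotype difference of Hnrnpa0 in footprints differed between batches by an interaction test (edgeR adjusted p = 0.0459). On the log2 scale KO minus WT was -0.42 in batch 3, 0.59 in batch 2 and -0.65 in batch 1.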

How the results depend on the processing

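No genotype difference of the 5 genes was called under any of 20 settings, in total RNA, footprints or the ratio. Rbm47 rested there on 11 footprint counts in KO6 and 2 in WT6. Over all tested genes the most called was 269 of 7786, in footprints without KO1. Leaving out each culture in turn gave these numbers of the 5 genes called, with the calls over all tested genes beside them. In total RNA, 0 to 1 were called for batch 2 over batch 1 (1345 of 11043 without WT4 to 3041 of 11059 without WT5). For batch 3 over batch 1, 2 (without KO1) to 4 (without WT5 or WT6) were called. All tested genes gave 4252 of 10994 there without WT3 to 5279 of 11043 without WT4. In footprints, 1 to 2 were called for batch 3 over batch 1 (990 of 7764 without KO5 to 1591 of 6848 without WT4). For batch 3 over batch 2, 0 to 1 were called (974 of 7764 without KO5 to 1760 of 7786 without KO1). In the ratio, 0 to 2 were called for batch 2 over batch 1 (412 of 6844 without WT4 to 1477 of 7774 without WT5). For batch 3 over batch 2, 0 to 1 were called (298 of 7760 without KO5 to 762 of 7781 without KO1). Without KO6 and WT6 the number was 0 in total RNA of batch 2 over batch 1 (2759 of all 10973 tested genes). It was 1 in the ratio of batch 3 over batch 1 (110 of 7680) and of batch 3 over batch 2 (767 of 7680). This gene was Rbm47, at 1.07 and 1.04 on the log2 scale. Under the same setting the number was 5 in total RNA of batch 3 over batch 2 (5448 of 10973), with Khsrp added at -0.41. It was 3 in batch 3 over batch 1 (5013 of 10973), with Celf2 added at -0.46 and Syncrip lost at 0.35. With limma it was 0 in total RNA of batch 2 over batch 1 (2326 of 10942). With no filter it was 1 in footprints of batch 3 over batch 1 (1660 of 12660). With DESeq2 it was 2 in the ratio of batch 2 over batch 1 (1517 of 7203). With the replicate block of each culture it was 3 in the ratio of batch 2 over batch 1 (2284 of 7203). It was 2 in the ratio of batch 3 over batch 2 (1264 of 7203). It stayed at 0 in the ratio of batch 3 over batch 1 (193 of 7203) and of KO over WT (1 of 7203). This block was not fitted for total RNA or footprints alone. KO and WT cultures of the same number share that number in the labels, and those of numbers 1, 4, 5 and 6 also share a batch. Their deviations from group means correlated at 0.027 (number 3) to 0.807 (number 5) in total RNA. In footprints they correlated at 0.073 (number 3) to 0.328 (number 5). A block on the number left the genotype calls of the 5 genes at 0.

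Small log2 changes turned sign, none of them called, and the cause was not tested. For KO over WT in total RNA, Syncrip had -0.048 with limma and -0.059 with no batch term, and Khsrp -0.038 with limma. For KO over WT in footprints, Rbm47 had -0.0074 without KO6 and WT6 and -0.022 with limma, and Celf2 0.0067 with no batch term, as Hnrnpab had 0.10 in the ratio. Between batches in total RNA, Khsrp had -0.16 without KO6 and WT6 (batch 3 over batch 1). In footprints with no filter, Rbm47 had -0.058 for batch 3 over batch 1 and -0.0042 over batch 2. In the ratio, Rbm47 had 0.024 without KO6 and WT6 and 0.062 with no filter (batch 2 over batch 1). For batch 3 over batch 2 in the ratio, Khsrp had -0.042 with limma and -0.12 with no filter, and Celf2 0.10 without KO6 and WT6 and 0.0065 with the replicate block.

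With each culture left out in turn, changes of KO over WT that turned sign ran, in total RNA, from -0.0067 to 0.22 for Rbm47, -0.035 to 0.18 for Syncrip and -0.067 to 0.16 for Khsrp. They ran in footprints from -0.039 to 0.093 for Rbm47, -0.069 to 0.057 for Hnrnpab and -0.43 to 0.11 for Khsrp, and in the ratio from -0.24 to 0.018 for Rbm47 and -0.48 to 0.047 for Khsrp. Between batches, Khsrp ran from -0.025 to 0.30 in total RNA (batch 3 over batch 1), from -0.32 to 0.023 (batch 3 over batch 2) and -0.39 to 0.17 (batch 2 over batch 1) in footprints, and from -0.33 to 0.16 in the ratio (batch 3 over batch 2). Rbm47 ran in footprints from -0.13 to 0.11 (batch 3 over batch 1) and -0.075 to 0.16 (batch 3 over batch 2), and in the ratio from -0.072 to 0.089 (batch 2 over batch 1). Celf2 ran in the ratio from -0.23 to 0.30 (batch 3 over batch 1) and -0.37 to 0.048 (batch 3 over batch 2).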
